A study of Bos taurus with 15 samples.

Results

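Tuft cells, rare chemosensory cells of the epithelium, were picked out of 5 single-cell RNA sequencing libraries of Holstein dairy cattle: the abomasum of newborn (NB) calves and the duodenum, jejunum, cecum, and colon of adult (AD) cattle. A barcode, the tag that the droplet method gives to 1 cell, was taken as a tuft barcode when it held 500 to 4000 genes, under 50000 unique molecular identifiers (UMIs, the counted RNA molecules), and at least 3 UMIs of AVIL and GNG13 together. Of 50462 barcodes of these libraries within the limits on genes and UMIs, 243 met this rule, with 40 from the NB abomasum and 9, 115, 54, and 25 from the AD duodenum, jejunum, cecum, and colon. All 15 libraries of the series held 132361 barcodes within the limits. All 4 AD tissues were taken from the same lactating cow. The NB tissues were from 3 calves, and which calf gave the abomasum is not given in the sources used here. The labels name no age, treatment, or genetic change. The AD duodenum and cecum were dissociated with a lamina propria kit and the AD jejunum and colon with a multi tissue kit, whereas the NB abomasum was treated with EDTA and trypsin before collagenases, hyaluronidase, dispase, and DNase. With 1 library for each tissue and stage, no comparison could be tested and no replicate error can be given. Stage, animal, organ, and dissociation cannot be told apart in the comparison of the AD gut with the NB abomasum.

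Tuft cells sense luminal chemicals through G proteins, phospholipase, calcium release, and the cation channel TRPM5, a pathway that they share with taste cells. In the mouse intestine they arise under the transcription factor POU2F3, release the cytokine IL25 and cysteinyl leukotrienes after contact with parasites, and so call on type 2 immunity. They carry a tuft of long microvilli whose actin core holds AVIL, an actin-bundling protein of the villin family. GNG13 is a G protein gamma subunit that was first known from taste cells. AVIL and GNG13 chose the barcodes, so their own levels are not a finding.

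Expression is given in CPM, the UMIs of a gene in all tuft barcodes of a library per 1000000 UMIs of those barcodes, with exact Poisson 95% intervals. These intervals, and the exact binomial (Clopper-Pearson) intervals of shares, cover counting error only. A gene with 0 UMIs can still be present below 3 counts, which for the tuft barcodes corresponds to 11.5 CPM in the NB abomasum and to 1.91 CPM over all 5 libraries. A pair of groups of barcodes from the same libraries served for comparison: other EPCAM barcodes, with at least 1 UMI of the epithelial surface gene EPCAM and none of PTPRC, CD3E, or COL1A2, and barcodes with no UMI of EPCAM.

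Total UMIs per library ranged from 48674267 to 102878281. The median UMIs per tuft barcode were 5109.5, 6108, 6667, 3818.5, and 5238 in the NB abomasum and the AD duodenum, jejunum, cecum, and colon, and the single barcodes ranged from 1140 to 22594. Between 23 and 35 barcode sequences occurred in both members of each pair of libraries, and 2 such cases concerned a tuft barcode. An EPCAM UMI was present in 227 of the 243 tuft barcodes. A UMI of CD3E, a T cell receptor subunit, was found in 0, 2, 24, 17, and 5 of them in the library order given above, which is 23.6% of the 203 AD tuft barcodes. The highest doublet scores included 47 tuft barcodes, namely 1 of 40, 2 of 9, 32 of 115, 10 of 54, and 2 of 25 in that order. The jejunum held most of these. That group was set in each library at 0.8% of all its barcodes for every 1000 of them. The jejunum library was rich in macrophage RNA, and a UMI of the complement gene C1QA was found in 70 of its 115 tuft barcodes (60.9%) against 55.3% of its barcodes without EPCAM. In the NB abomasum, 1 tuft barcode held all 107 UMIs of C1QA. Antibody RNA was widespread too, and without the barcodes that held a UMI of CD3E, CD79A, JCHAIN, or COL1A2 the AD tuft barcodes numbered 2, 19, 26, and 6. TBXAS1, CD52, CORO1A, and the class II genes called, which T cells or macrophages also express, are given with and without the CD3E or C1QA barcodes.

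Tuft barcodes made up 0.400% (95% interval 0.286 to 0.544) of the barcodes in the NB abomasum, 0.0867% (0.0397 to 0.165) in the AD duodenum, 1.04% (0.857 to 1.24) in the AD jejunum, 0.560% (0.421 to 0.729) in the AD cecum, and 0.268% (0.173 to 0.395) in the AD colon. The AD jejunum had the highest share and the AD duodenum the lowest, and no neighboring intervals in this order overlapped apart from those of cecum with NB abomasum and of NB abomasum with colon. Among barcodes with EPCAM the order was different. There tuft barcodes were 0.725% in the NB abomasum, 3.86% in the AD duodenum, 22.0% in the AD jejunum, 5.38% in the AD cecum, and 3.66% in the AD colon. The AD suspensions held few epithelial barcodes, with 233 to 873 EPCAM barcodes per library against 5520 in the NB abomasum, so these shares describe the suspensions and not the tissue.

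**Figure D1:**
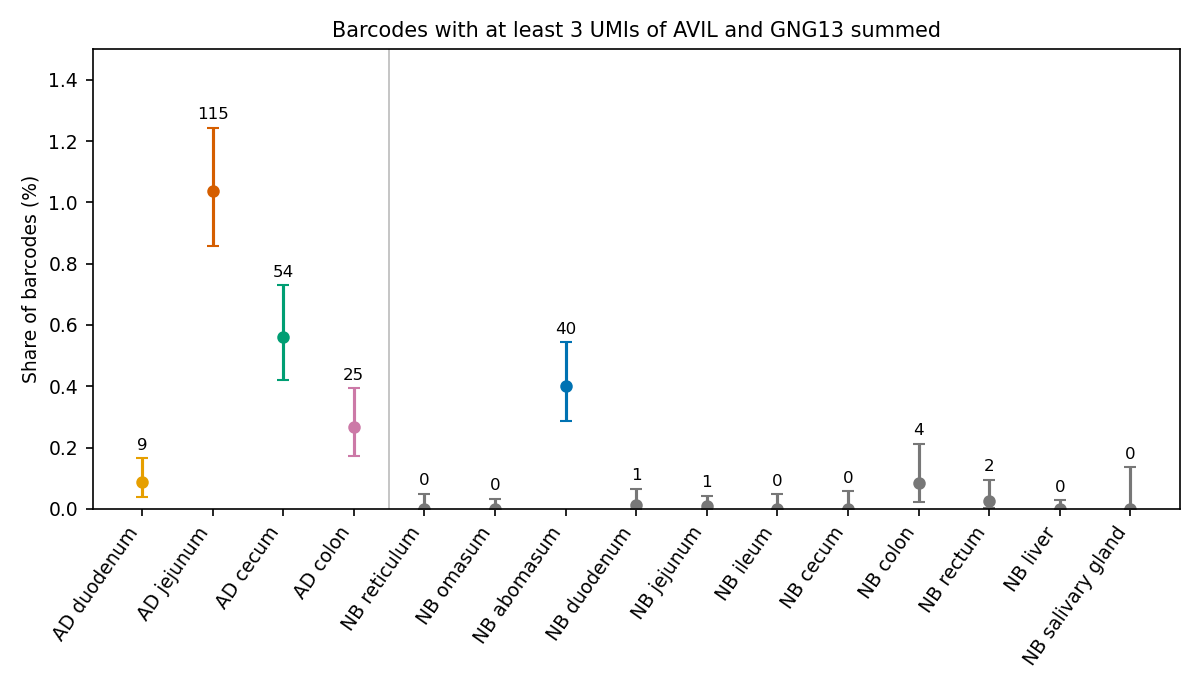
The share of barcodes that met the tuft rule (percent of barcodes within the limits, vertical axis) in each of the 15 libraries, with exact binomial 95% intervals that cover counting error only and the number of tuft barcodes above each point. The AD jejunum stands highest at 1.04%, the NB abomasum at 0.400% is the highest of the NB libraries, and 6 NB libraries have none.

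The other 10 libraries, all NB, held 8 more barcodes by the same limits among 81899, with 4 in the colon, 2 in the rectum, and 1 each in the duodenum and jejunum. None was found in the reticulum, omasum, ileum, cecum, liver, or salivary gland, where a count of 0 allows shares of up to 0.0236% to 0.111%. The 30 barcodes with exactly 3 UMIs of AVIL and GNG13 had a median of 2283.5 UMIs, and 25 of them held ALOX5, 26 LTC4S, and 28 RGS13. The 42 barcodes just outside, with 2 UMIs, had a median of 1603.5 UMIs, and 22 held ALOX5, 37 LTC4S, and 30 RGS13. From the inner to the outer side the share with ALOX5 was 83.3% and 52.4%, with PTGS1 36.7% and 21.4%, with EPCAM 66.7% and 45.2%, and with LTC4S 86.7% and 88.1%.

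The label was checked against a list of 20 tuft markers, of which 19 have a symbol in the files. The rule itself used AVIL and GNG13, so the sum was taken over the other 17. It was 4759 CPM in the NB abomasum and 8403 to 10655 CPM in the 4 AD libraries, and 28.8 to 140.2 CPM in the other EPCAM barcodes and 149.8 to 693 CPM in barcodes without EPCAM. Of the 17, 15 had UMIs in the NB abomasum and 13, 16, 16, and 14 in the AD duodenum, jejunum, cecum, and colon. In the other EPCAM barcodes 2, 11, 3, 2, and 2 of the 17 were at 0 in the same order. In those without EPCAM 4, 3, 0, 0, and 0 were at 0, so this count alone did not set the tuft barcodes apart. HPGDS, which makes prostaglandin D in mouse tuft cells, was at 0 in all 5 libraries. Endocrine markers were at or near 0, with 6 of 6 at 0 in each AD library and a sum of 7.69 CPM in the NB abomasum. The 3 goblet markers found summed to 538, 213, 767, 164, and 171 CPM in the library order, against 294 to 14273 CPM in the other EPCAM barcodes. B and plasma cell markers summed to 7.69, 290.1, 1521, 194, and 158 CPM, against 82.7 to 35046 CPM in barcodes without EPCAM. Macrophage and dendritic cell markers summed to 930, 232, 1765, 45.6, and 12.7 CPM, against 1034 to 11371 CPM there. The 6 mast cell markers summed to 304, 406, 188, 38.0, and 120.2 CPM in the NB abomasum and the AD duodenum, jejunum, cecum, and colon, against 45.7 to 102 CPM in barcodes without EPCAM. CPA3, MS4A2, and GATA2 had no UMI in any tuft barcode, and the UMIs were those of KIT, of HDC, at 76.9 CPM in the NB abomasum and 38.0 CPM in the AD colon, and of FCER1A, with 13 UMIs in 1 jejunal barcode.

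LTC4S, ALOX5AP, and ALOX5, which carry out leukotriene synthesis, and the G protein regulator RGS13 stood farthest above the other epithelium. A gene was called higher when its CPM plus 20 was at least 4-fold that of the other EPCAM barcodes, with intervals that did not overlap, in each of the 4 libraries with at least 20 tuft barcodes. Of 8249 genes compared, 53 were called higher (0.643%) and 2 lower (0.0242%). The median log2 ratio of all compared genes was 0.53 in the NB abomasum and 0.30, 0.30, and 0.23 in the AD jejunum, cecum, and colon. The 9 duodenal barcodes did not enter, but in them 46 of the 53 genes (86.8%) reached the same ratio, against 4.24% of all compared genes. The 41 other EPCAM barcodes of the duodenum held 61089 CPM of B and plasma cell markers, against 290.1 CPM in its tuft barcodes, and their part in the ratios was not tested. Because the barcodes were chosen by their own UMIs, these ratios are a description. Without the NB abomasum, 43 genes were called lower. With size factors from medians of ratios, which take out the shift of all genes, 33 were called higher and 12 lower, so that 73.3% of the calls were higher instead of 96.4%.

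LTC4S, which joins glutathione to leukotriene A to form cysteinyl leukotrienes, reached 1253 CPM (95% interval 1121 to 1397) in the NB abomasum, 4254 in the AD duodenum, 3911 in the AD jejunum, 3719 in the AD cecum, and 3397 in the AD colon. The NB abomasum was the lowest of the 5, and the AD libraries lay within 3116 to 4855 CPM when their intervals were included. In the other EPCAM barcodes it was at 0 to 43.7 CPM, and the log2 ratio to them was 5.91 to 6.69. ALOX5, the lipoxygenase that begins leukotriene synthesis, was at 961, 1721, 969, 954, and 1379 CPM in the NB abomasum and the AD duodenum, jejunum, cecum, and colon, with a log2 ratio of 4.97 to 5.73. Its level differed by less than the counting intervals between the NB abomasum, the AD jejunum, and the AD cecum, where the intervals overlapped, and was higher in the AD colon and duodenum. ALOX5AP, the membrane protein that presents arachidonic acid to ALOX5, was at 1822, 2611, 1520.2, 1335, and 1291 CPM in the same order, with a log2 ratio of 5.67 to 6.50.

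These genes were found together in the same barcodes. All 3 of ALOX5, ALOX5AP, and LTC4S had a UMI in 204 of 243 tuft barcodes, namely 35 of 40 in the NB abomasum and 9 of 9, 95 of 115, 42 of 54, and 23 of 25 in the AD duodenum, jejunum, cecum, and colon, and at least 1 of them in 242. ALOX5 was present in 39 of 40 tuft barcodes of the NB abomasum (97.5%) and in 94.6% of the AD ones, against 1.81% and 0.593% to 2.97% of the barcodes without EPCAM, whose median UMIs were 3728 and 3607 to 3916. After thinning each barcode to 1000 UMIs the shares in tuft barcodes, none of which was too shallow, were 75.0% and 63.5%. The UMIs of ALOX5 ranged from 0 to 13 per tuft barcode in the NB abomasum and from 0 to 21 in the AD jejunum, with medians of 6 and 7. No single barcode held more than 19.1% of them in any library.

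**Figure D2:**
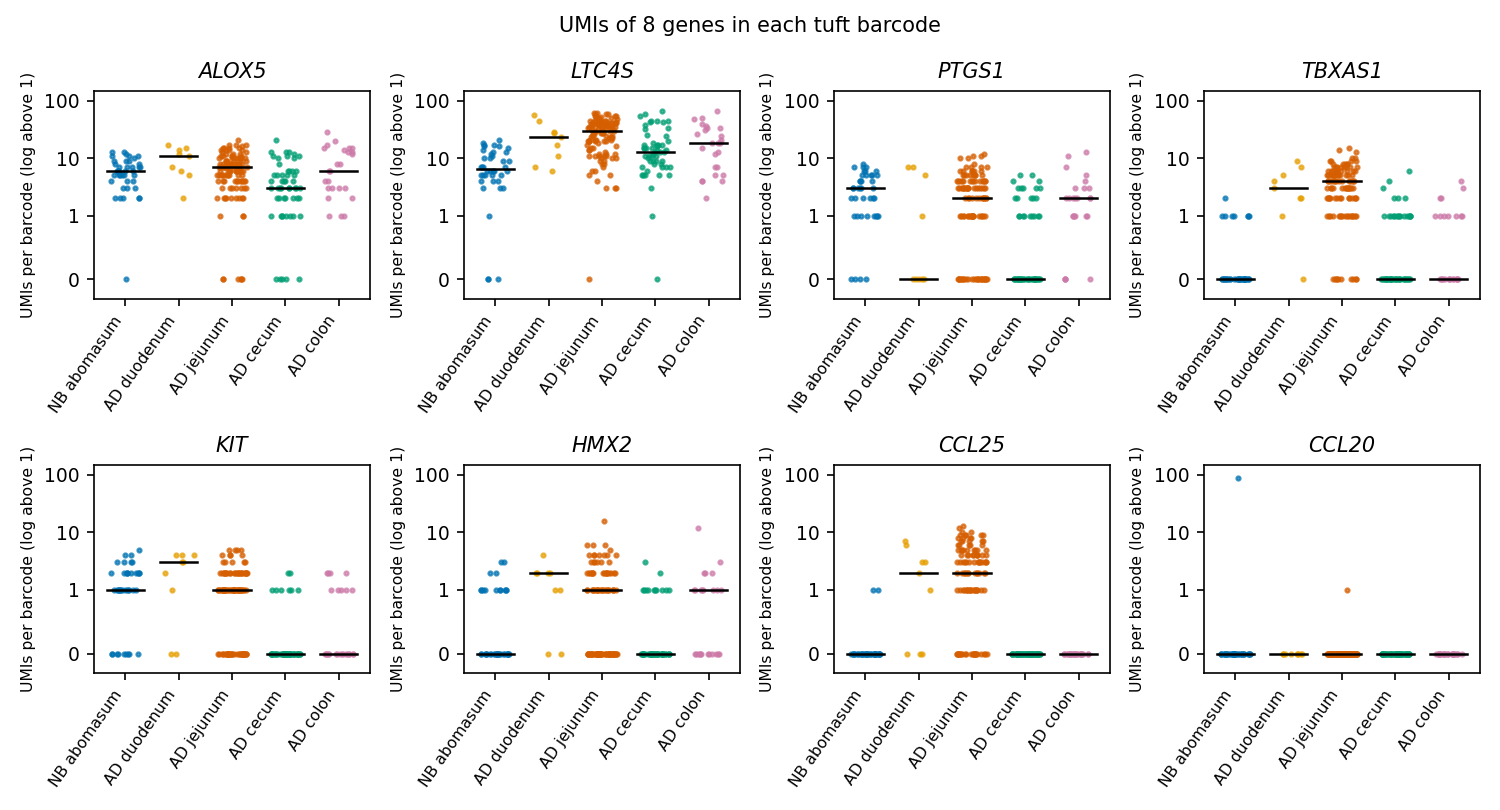
UMIs of 8 genes in each tuft barcode (vertical axis, linear to 1 and logarithmic above), with 1 point per barcode and a black line at the median of each library. The median of ALOX5 lies above 0 in all 5 libraries, TBXAS1 has a median above 0 in the AD duodenum and jejunum and of 0 in the others, and all 88 UMIs of CCL20 in the NB abomasum lie in 1 barcode.

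Other enzymes of arachidonic acid metabolism, among them PLA2G4A, PTGS1, TBXAS1, and HPGD, had UMIs in all 5 libraries. PLA2G4A, the cytosolic phospholipase that frees arachidonic acid, was at 238, 464, 296, 308, and 335 CPM in the NB abomasum and the AD duodenum, jejunum, cecum, and colon and was called higher than the other EPCAM barcodes (log2 ratio 2.97 to 3.13). PTGS1, the constitutive cyclooxygenase, was at 484, 387, 383, 198, and 437 CPM, also called higher (log2 ratio 3.38 to 4.57), and was lowest in the AD cecum, where 23 of 54 barcodes held it against 36 of 40 in the NB abomasum. PTGS1 and ALOX5 occurred together in 171 tuft barcodes, ALOX5 without PTGS1 in 60, PTGS1 without ALOX5 in 1, and neither in 11. After thinning, PTGS1 was left in 47.5% of the NB and 23.6% of the AD tuft barcodes, from 90.0% and 67.0%. It was also present in 11.7% of the NB abomasum barcodes without EPCAM, against at most 1.54% of the AD ones.

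TBXAS1, thromboxane synthase, differed between the organs. It was at 34.6 CPM (95% interval 15.8 to 65.7) in the NB abomasum, 638 in the AD duodenum, 552 in the AD jejunum, 129 in the AD cecum, and 114 in the AD colon. The small intestine stood apart from the large intestine and the abomasum, with 105 of 115 jejunal tuft barcodes holding it against 21 of 54 in the cecum, 11 of 25 in the colon, and 8 of 40 in the abomasum. Of the barcodes without EPCAM, 6.02% held it in the AD jejunum and 7.36% in the NB abomasum. Macrophages express TBXAS1 too, and in the jejunal barcodes without a C1QA UMI its level was 583 CPM. HPGD, which degrades prostaglandins, was at 38.4, 406, 167, 251, and 63.3 CPM, lowest in the NB abomasum and the AD colon. LTA4H, which makes leukotriene B instead, was at 25.3 to 53.2 CPM. Of the 24 listed eicosanoid genes in the files, 12 were compared with the other EPCAM barcodes and 5 were called higher and 0 lower, with list medians of 1.31, 1.90, 1.72, and 1.50 in the 4 libraries. Over all compared genes 0.643% were called higher and 0.0242% lower, with medians of 0.53, 0.30, 0.30, and 0.23. This list and those below were chosen with earlier results of these data known. Another 8 eicosanoid genes had no UMI in any tuft barcode: PTGS2, HPGDS, PTGES, PTGIS, ALOX12, ALOX15B, CYSLTR2, and PTGER3.

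**Figure D3:**
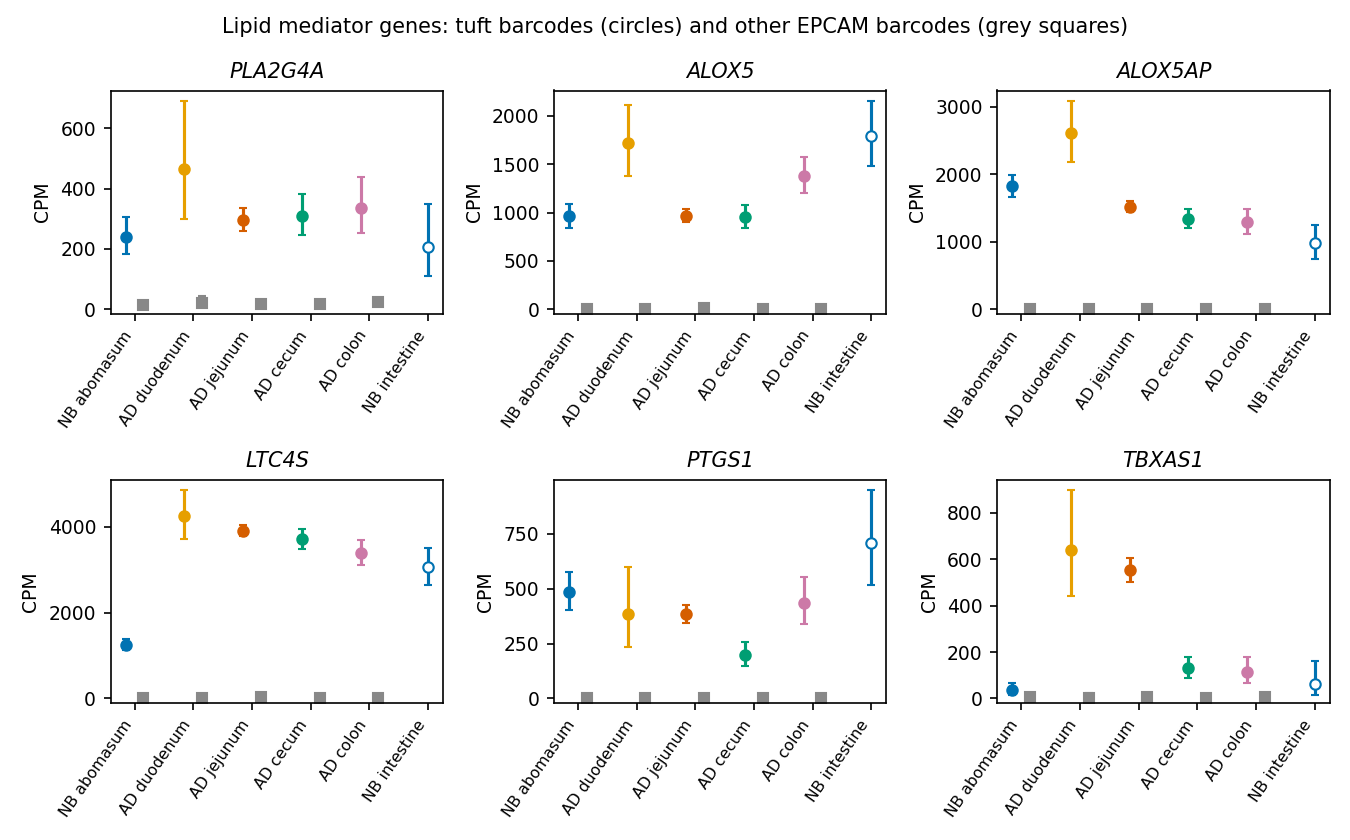
CPM of 6 genes of lipid mediator synthesis in tuft barcodes (circles) and other EPCAM barcodes (grey squares) by library, with exact Poisson 95% intervals that cover counting error only; the open circle pools the 8 barcodes of the other NB libraries, which were intestinal. LTC4S is lowest in the NB abomasum at 1253 CPM, TBXAS1 runs from 34.6 CPM there to 638 CPM in the AD duodenum, and the grey squares lie near 0.

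The taste-type signaling pathway was partly detected. RGS13, a regulator that shortens G protein signaling, was at 707, 1914, 1181, 1468, and 1923 CPM in the NB abomasum and the AD duodenum, jejunum, cecum, and colon and was called higher than the other EPCAM barcodes (log2 ratio 5.09 to 6.44). GNAI2, an inhibitory G protein alpha subunit, was at 504, 406, 509.5, 407, and 474 CPM in that order (log2 ratio 2.81 to 3.27), and its 5 intervals overlapped. With all other EPCAM barcodes for comparison its lowest log2 ratio was 1.23, and it was not called. ATP2A3, the pump that refills the calcium store, was at 396, 1044, 1189, 1152, and 1253 CPM and was also called higher (log2 ratio 2.42 to 4.15), although not with medians of ratios. GNAT3 and GNB3, the gustducin subunits of taste cells, had no UMI in any tuft barcode, nor did TAS1R2, FFAR2, CALHM1, or CALHM3. Of the 22 listed genes of this pathway, 8 were compared, 3 were called higher, and 0 lower, with list medians of 0.80, 1.85, 1.54, and 1.45. Over all compared genes 0.643% were called higher and 0.0242% lower, with medians of 0.53, 0.30, 0.30, and 0.23.

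TRPM5 was sparse but concentrated in the tuft barcodes. It was at 23.1, 96.7, 33.3, 64.6, and 88.6 CPM in the NB abomasum and the AD duodenum, jejunum, cecum, and colon, in 6, 4, 27, 15, and 11 tuft barcodes. Outside the tuft barcodes it was at 0 to 6.97 CPM in the other EPCAM barcodes and at 0 to 2.27 CPM in those without EPCAM. TRPM5 was not compared in the count above because it had under 10 UMIs in the NB abomasum. PLCB2, the phospholipase of taste cells, was at 0 to 11.4 CPM, and PLCG2, a phospholipase known from B cells, at 15.4 to 133 CPM. ITPR2, an inositol trisphosphate receptor that releases calcium, was at 15.4 CPM in the NB abomasum, with 4 UMIs in 4 of 40 barcodes, and at 1489, 932, 365, and 462 CPM in the AD duodenum, jejunum, cecum, and colon. The barcodes without EPCAM were also lowest in the NB abomasum, at 35.4 CPM against 101 to 238 CPM in the AD libraries.

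**Figure D4:**
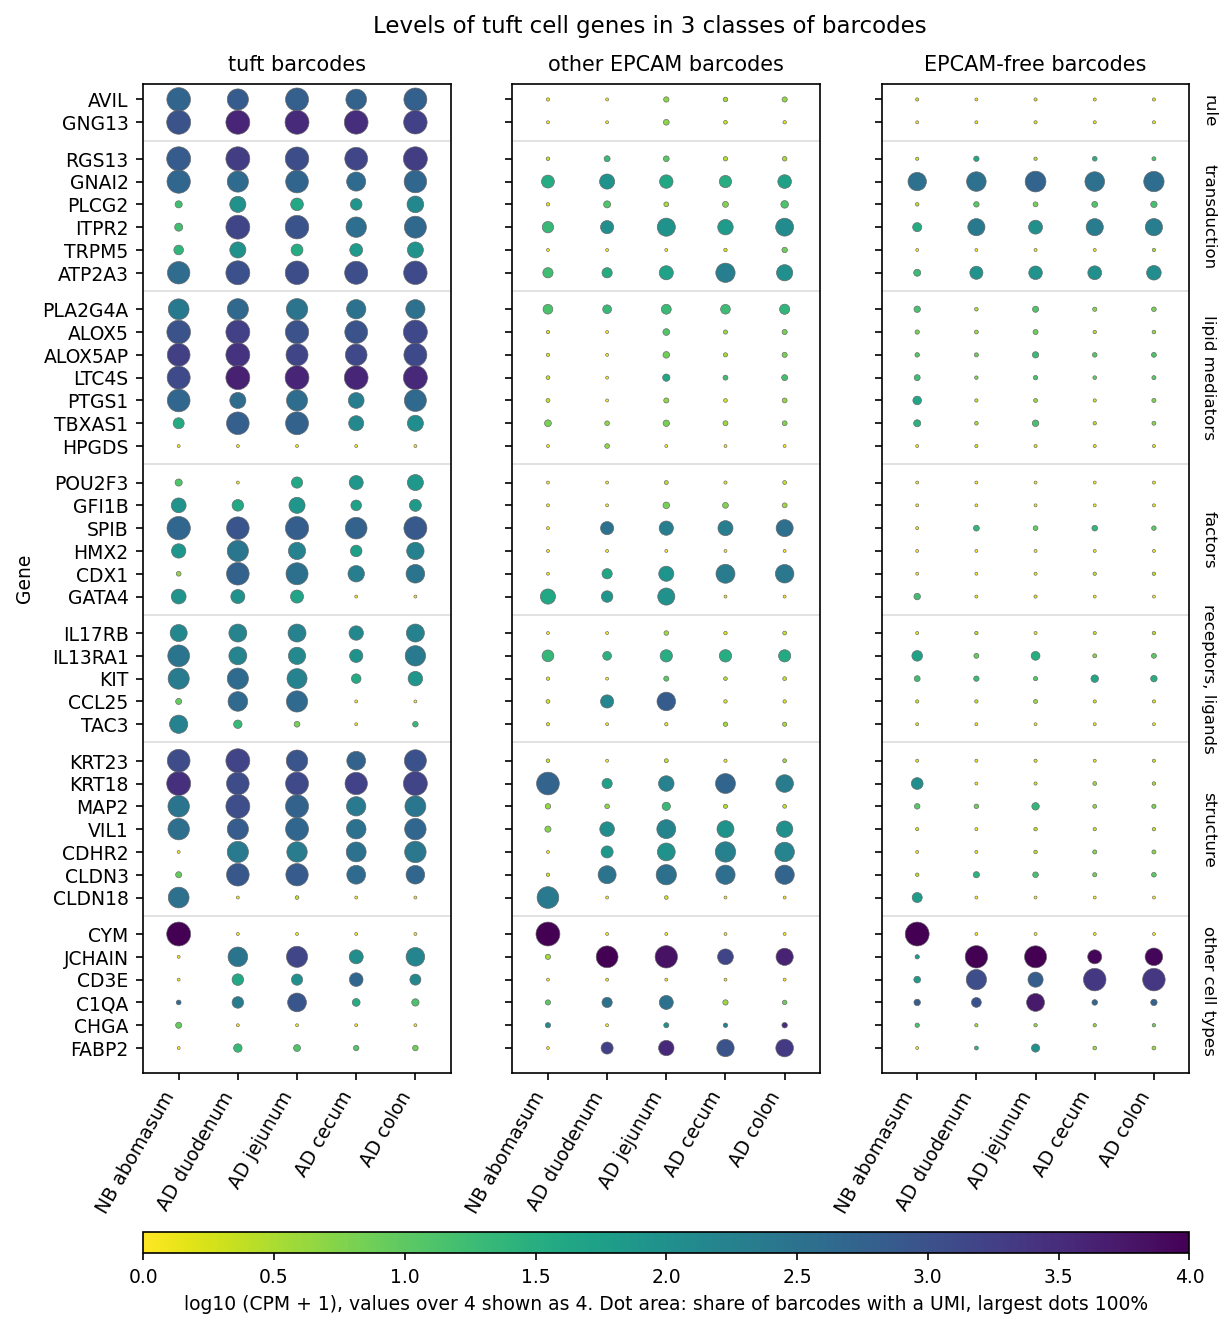
Levels of genes by role in tuft barcodes, other EPCAM barcodes, and barcodes without EPCAM of the 5 libraries, where color gives log10 of CPM plus 1 and dot area the share of barcodes with a UMI. ALOX5, ALOX5AP, LTC4S, and RGS13 have large dots in the tuft panel of all 5 libraries and small ones in the other panels. POU2F3 and TRPM5 have smaller dots in the tuft panel, at 0% to 44.4% of the barcodes of a library.

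POU2F3, the factor that defines tuft cells in mice, was detected at low levels. It was at 11.5, 0, 39.3, 76.0, and 75.9 CPM in the NB abomasum and the AD duodenum, jejunum, cecum, and colon, from 3, 0, 24, 18, and 11 barcodes, against at most 1.59 CPM in the other EPCAM barcodes. The 0 in the duodenum rests on 9 barcodes and allows up to 58.0 CPM. SPIB, an ETS factor of B cells and tuft cells, was found in 221 of 243 tuft barcodes at 492, 889.5, 654, 582, and 791 CPM, but it was shared by the other epithelium of the AD gut at 197 to 358 CPM and not by that of the NB abomasum at 0.0625 CPM. HMX2, a homeobox factor, was at 76.9, 271, 170.2, 57.0, and 183 CPM and at 0 to 0.0469 CPM in the other EPCAM barcodes. GFI1B, a repressor better known from platelets and red cells, was at 88.4, 38.7, 79.8, 53.2, and 69.6 CPM.

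Of the 27 listed factors in the files, 14 were compared with the other EPCAM barcodes and 0 were called in either direction, with list medians of 1.41, 1.12, 1.48, and 1.21. The shares over all compared genes were 0.643% higher and 0.0242% lower, with medians of 0.53, 0.30, 0.30, and 0.23. HMX2 and GFI1B had log2 ratios of 1.95 to 3.35 and 1.57 to 2.43, which missed the limit of 2 in at least 1 library. LMO2, a partner of blood cell transcription factors that was not in the list, was called higher at 1388, 774, 400.0, 384, and 519 CPM, and the NB abomasum was the highest of the 5. ATOH1, NEUROG3, and INSM1, which specify secretory and endocrine cells, had no UMI in any tuft barcode.

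The receptors that let tuft cells answer cytokines were present, while IL25 and IL33 themselves were not detected. IL17RB, the IL25 receptor subunit, was at 135, 155, 165, 137, and 177 CPM in the NB abomasum and the AD duodenum, jejunum, cecum, and colon, with intervals that all overlapped. It was the 1 gene called higher than the other EPCAM barcodes among the 13 compared of 24 cytokine genes, with list medians of 0.12, 0.45, 0.58, and 0.43. The shares over all compared genes were 0.643% higher and 0.0242% lower, with medians of 0.53, 0.30, 0.30, and 0.23. IL13RA1, part of the receptor of IL4 and IL13, was at 288, 155, 129, 91.3, and 234 CPM. IL25 and IL33 had no UMI in any of the 243 tuft barcodes, which allows up to 1.91 CPM. The chemokine CCL25, which attracts lymphocytes to the small intestine, was at 425 CPM in the AD duodenum and 432 CPM in the AD jejunum and at 0 in the AD cecum and colon, with 7.69 CPM from 2 UMIs in the NB abomasum. The other EPCAM barcodes had the same division, with 147 and 703 CPM in duodenum and jejunum and under 1 CPM in the rest.

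Genes of acetylcholine synthesis were rare. CHAT, the synthesizing enzyme, had 10 UMIs over the 5 libraries, and SLC5A7, the choline transporter, was at 116 CPM in the AD duodenum and 29.8 CPM in the AD jejunum and at 0 in the other 3. HDC, which makes histamine, was at 76.9 CPM in the NB abomasum from 9 of 40 barcodes and at 38.0 CPM in the AD colon from 2 of 25. No gene of this list was called in the comparison with the other EPCAM barcodes, among 6 compared of 16. Its list medians were 0.21, -0.92, -0.87, and -0.64, against 0.53, 0.30, 0.30, and 0.23 for all compared genes. Of all compared genes 0.643% were called higher and 0.0242% lower.

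Genes of the cytoskeleton included KRT18, a simple epithelial keratin, at 2798, 1199, 1271, 1635, and 1569 CPM in the NB abomasum and the AD duodenum, jejunum, cecum, and colon, highest in the NB abomasum. KRT23, another keratin, was called higher than the other EPCAM barcodes at 1230.1, 1566, 900.0, 548, and 1006 CPM (log2 ratio 4.81 to 5.89), and so was MAP2, a microtubule protein of neurons, at 284, 1122, 545, 236, and 272 CPM (log2 ratio 3.54 to 3.84). DCLK1, the usual tuft marker of the mouse, had no UMI in any tuft barcode, and TUBB3 and TPPP3 had none either. KRT23 and MAP2 are not on the list of cytoskeleton and brush border genes, of whose 28 genes in the files 18 were compared and 0 were called. Its list medians were 1.50, 1.05, 1.21, and 0.97, against 0.53, 0.30, 0.30, and 0.23 for all compared genes. Of all compared genes 0.643% were called higher and 0.0242% lower.

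Some signaling genes better known from blood cells were higher in tuft barcodes than in the other EPCAM barcodes, which hold no PTPRC or CD3E UMI by definition. Of 39 listed genes in the files, 26 were compared and 7 were called higher than the other EPCAM barcodes and 0 lower, among them BMX, PTPN6, RAC2, FYB1, LRMP, and FES. The list medians were 1.95, 1.81, 2.38, and 2.15. Over all compared genes 0.643% were called higher and 0.0242% lower, with medians of 0.53, 0.30, 0.30, and 0.23. BMX, a Tec family kinase, was at 219, 619, 523, 525, and 474 CPM in the library order. FYB1, an adaptor of T cells and platelets, was at 349.8, 716, 715, 719, and 943 CPM. When EPCAM barcodes with PTPRC, CD3E, or COL1A2 were let into the comparison, FYB1, PTPN6, and RAC2 were no longer called (log2 1.89, 1.42, and 0.42 at the lowest), and 41 of the 53 genes called higher were kept. PTPN6 and RAC2 were not called with medians of ratios either. LRMP, a partner of inositol trisphosphate receptors, was at 265, 619, 338, 426, and 437 CPM.

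PTPRC, the pan-leukocyte marker CD45, had a UMI in 10 of 40 tuft barcodes of the NB abomasum and in 4 of 9, 43 of 115, 28 of 54, and 16 of 25 AD ones. Restricted to barcodes without CD3E, the counts were 10 of 40 and 3 of 7, 32 of 91, 15 of 37, and 13 of 20, and without both CD3E and C1QA 10 of 39 and 3 of 6, 12 of 39, 12 of 34, and 12 of 18. Of the barcodes without EPCAM, 7.87%, 76.5%, 66.3%, 85.7%, and 85.8% held it in the library order, and its part in the tuft barcodes was not tested. CD52, another leukocyte surface gene, was at 220.2, 798, and 392 CPM in the AD jejunum, cecum, and colon, and at 50.8, 100.1, and 8.70 CPM without the CD3E barcodes. CORO1A, an actin regulator of leukocytes, was at 170.2, 316, and 146 CPM in these libraries and at 79.3, 182, and 8.70 CPM without them. T cell markers summed to 0 in the NB abomasum, with 6 of 6 at 0, and to 38.7 to 757 CPM in the AD libraries. KIT, a receptor shared by tuft and mast cells, was at 227, 406, 171, 38.0, and 82.2 CPM in the library order, from 31, 7, 80, 8, and 9 barcodes, with the AD cecum lowest.

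The remaining genes among the 15 with the largest smallest ratio to the other EPCAM barcodes have less familiar roles. GRASP, a scaffold protein, was at 1149, 870.2, 870.2, 1159.7, and 1291 CPM in the NB abomasum and the AD duodenum, jejunum, cecum, and colon (log2 ratio 4.82 to 5.58). BPIFA2C, a secreted protein of the BPI fold family, was at 369, 425, 344, 1046, and 1126 CPM and was higher in the AD cecum and colon than in the other libraries. The kinase STK38 was at 461, 1218, 733, 814, and 911 CPM, the folate hydrolase GGH at 369, 638, 336, 699.6, and 354 CPM, and the serine synthesis enzyme PSPH at 446, 271, 420.2, 213, and 253 CPM. The genes called lower were CHGA, a granule protein of endocrine cells (log2 ratio -7.22 to -2.40), and SPINK1, a trypsin inhibitor (-6.99 to -2.26). CHGA was at 7.69 CPM in the NB abomasum tuft barcodes and at 0 in the AD ones, against 0 to 2969 CPM in the other EPCAM barcodes, and its call was lost when the barcodes with the highest doublet scores were left out (log2 ratio -1.88 at the nearest to 0).

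The second question was how tuft barcodes of the AD gut differ from those of the NB abomasum. A gene was called when its CPM plus 20 differed at least 2-fold from the NB abomasum, without overlap of intervals, in each of the AD jejunum, cecum, and colon. Of 9022 genes compared, 182 were called higher in the AD gut (2.02%) and 148 lower (1.64%), and the median log2 ratio of all compared genes was 0.19, 0.18, and 0.14 in the AD jejunum, cecum, and colon. The duodenal barcodes reached the ratio for 152 of the 182 (83.5%, against 15.4% of all compared genes) and for 132 of the 148 (89.2%, against 10.9%), but all ratios share the NB abomasum. In barcodes without EPCAM, 48 of the higher genes (26.4%) and 94 of the lower ones (63.5%) had at least the same 2-fold ratio in the same direction between the libraries, against 3.42% and 4.63% of all compared genes. In the other EPCAM barcodes 96 (52.7%) and 53 (35.8%) did, against 6.50% and 0.953%. The number was sensitive to the setting. Without the AD jejunum 305 were called higher, without the AD colon 286, and with medians of ratios 116 were called higher and 226 lower, so that the share of higher calls was 33.9% instead of 55.2%.

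**Figure D5:**
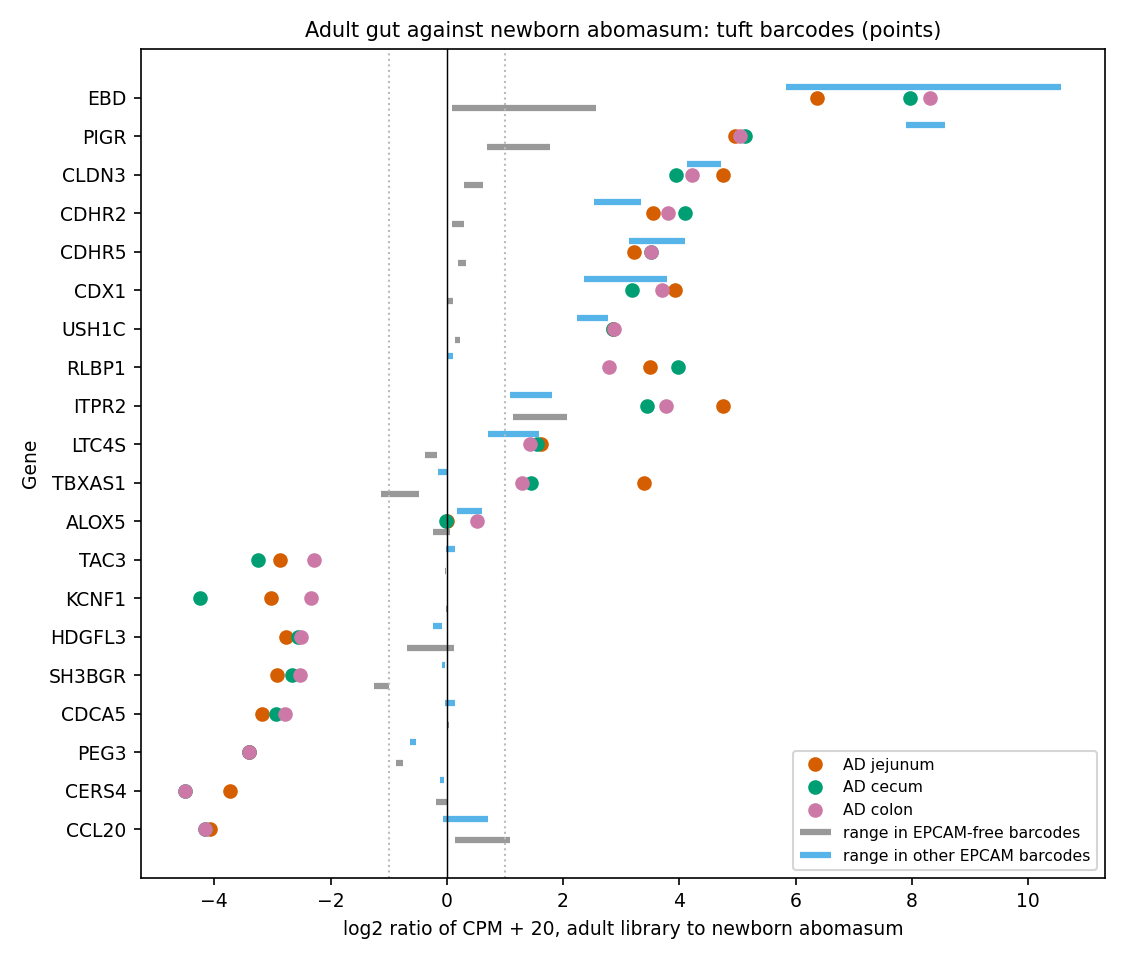
Log2 ratios of CPM plus 20 of the AD jejunum, cecum, and colon to the NB abomasum (horizontal axis) for named genes, with 1 point per AD library for the tuft barcodes and bars for the range of the same ratios in other EPCAM barcodes (blue) and barcodes without EPCAM (grey). The 7 genes from EBD to USH1C are raised in both tuft and other EPCAM barcodes, and RLBP1 in the tuft barcodes but not in the others.

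Among the genes called higher in the AD gut were several known from the intestine. Apart from genes of the lists, those named for either side had the largest ratios among genes that did not also move in barcodes without EPCAM, so the lack of a like change there follows from the choice. EBD, an enteric beta-defensin, was at 7.69 CPM (95% interval 0.931 to 27.8) in the NB abomasum, from 2 UMIs, and at 1373 CPM in the AD duodenum, 2268 in the AD jejunum, 6939 in the AD cecum, and 8813 in the AD colon. The beta-defensins EBD, DEFB7, and DEFB13 belong to a family of similar genes, as do the BOLA genes, and their counts are uncertain where reads fit more than 1 member. PIGR, which carries immunoglobulin A across the epithelium, was at 0 in the NB abomasum and at 600.0, 684, and 639 CPM in the AD jejunum, cecum, and colon, at least 52.0-fold higher in the lowest of them. CDX1, a factor of intestinal identity, had 1 UMI in the NB abomasum and was at 561, 342, 198, and 291 CPM in the 4 AD libraries. The same division was seen in the other EPCAM barcodes, which held 3879.9 to 7629 CPM of PIGR and 42.5 to 258 CPM of CDX1 in the AD gut and 0.141 and 0 CPM in the NB abomasum.

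Some junction and brush border genes were called higher in the AD gut. Of 13 listed junction genes compared, 7 were called higher and 1 lower, with list medians of 1.39, 1.14, and 1.68. Over all compared genes 2.02% were called higher and 1.64% lower, with medians of 0.19, 0.18, and 0.14. CLDN3, a tight junction protein, had 2 UMIs in the NB abomasum and was at 832, 729, 407, and 493 CPM in the AD duodenum, jejunum, cecum, and colon. CLDN18, the claudin of the stomach, was at 331 CPM in the NB abomasum and at 0 to 1.19 CPM in the AD gut. Of 21 cytoskeleton genes compared, 5 were called higher and 0 lower, all of them parts of the intestinal brush border: MYO1A, MYO7B, CDHR2, CDHR5, and USH1C. CDHR2, a cadherin that links neighboring microvilli, was at 0 in the NB abomasum and at 232, 213, 323, and 259 CPM in the AD libraries. Of 21 transcription factors compared, CDX1, CDX2, and ZFHX3 were called higher.

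RLBP1, a carrier of retinaldehyde, was also called higher in the AD tuft barcodes. It was at 3.84 CPM (95% interval 0.0973 to 21.4) in the NB abomasum, from 1 UMI in 40 barcodes, and at 348, 249, 357, and 146 CPM in the AD duodenum, jejunum, cecum, and colon, in 7 of 9, 65 of 115, 27 of 54, and 4 of 25 barcodes. In the other EPCAM barcodes of all 5 libraries it was at 0 to 1.45 CPM, and in those without EPCAM at 0 to 0.214 CPM. In the AD colon 4 barcodes carried all of it, and 1 of these held 39.1% of its UMIs.

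Signaling genes of the tuft barcodes also differed. LTC4S was called higher in the AD gut with log2 ratios of 1.42 to 1.63, and it was also higher in the other EPCAM barcodes of the AD jejunum, cecum, and colon (14.5 to 43.7 CPM against 1.2 CPM, while the 41 of the AD duodenum held no UMI of it). In the tuft barcodes ALOX5 was not called. TBXAS1 was called with 1.29 to 3.39 but not with medians of ratios, where its lowest ratio was 1.03, past 2-fold, and the call also needs intervals that do not overlap. ITPR2 (3.44 to 4.75) and ATP2A3 (1.49 to 1.61) were called as well, but both moved the same way in the barcodes without EPCAM. Among 35 compared blood cell signaling genes, BMX, INPP5D, CD52, and CORO1A were called higher, of which INPP5D, CD52, and CORO1A also moved in the barcodes without EPCAM and BMX was not called with medians of ratios (log2 0.71 at the lowest). Over all compared genes 2.02% were called higher and 1.64% lower. Without the CD3E barcodes CD52 and CORO1A were each at 8.70 CPM in the AD colon, against 0 and 38.4 CPM in the NB abomasum, so CD52 did not reach the 2-fold ratio there and CORO1A was lower in the AD colon, and in the AD jejunum CORO1A, at 79.3 CPM, did not reach it either. Without the C1QA barcodes BMX was at 439 CPM in the AD colon and 234 CPM in the NB abomasum, under the ratio. MATK, a kinase of the Csk family, was called lower at 161 CPM in the NB abomasum against 17.9 to 58.0 CPM in the AD gut. Of 11 compared genes of the antigen list, 4 were called higher in the AD gut and 1 lower. The higher ones were PIGR and the class I antigen genes BOLA, B2M, and TAP1, and the lower one was FCGRT. BOLA, B2M, and TAP1 all moved the same way in the barcodes without EPCAM. TAP1, a peptide transporter, was at 3.84 CPM in the NB abomasum and at 148 to 452 CPM in the AD libraries.

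On the NB side, several genes were much higher in the abomasal tuft barcodes. CERS4, a ceramide synthase, was at 434 CPM (95% interval 358 to 522) in 33 of 40 barcodes, against 14.3 CPM in the AD jejunum and 0 in the AD duodenum, cecum, and colon, and against 1.76 CPM in the other EPCAM barcodes of the same abomasum. TAC3, the precursor of the peptide neurokinin B, was at 169 CPM in 23 of 40 barcodes and at 19.3, 5.95, 0, and 19.0 CPM in the AD libraries. KCNF1, a potassium channel subunit, was at 431 CPM in 34 of 40 barcodes and at 290.1, 35.7, 3.80, and 69.6 CPM in the AD libraries, so that the AD duodenum stood nearer to the abomasum than to the other AD tissues.

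CDCA5, a regulator of cohesin, was at 161 CPM in 24 of 40 NB barcodes and at 0 to 6.33 CPM in the AD gut. Of the 19 compared genes of the proliferation list none was called higher or lower. The list medians were 1.03, 0.46, and 0 in the AD jejunum, cecum, and colon. The shares over all compared genes were 2.02% higher and 1.64% lower, with medians of 0.19, 0.18, and 0.14. SH3BGR was at 131 CPM in 20 of 40 NB barcodes and at 0 to 19.3 CPM in the AD gut. HDGFL3 was at 165 CPM in 26 of 40 and at 0 to 12.7 CPM. PEG3, an imprinted zinc finger gene, was at 192 CPM in 20 of 40 NB barcodes and at 0 in all 4 AD libraries, at least 10.1-fold lower in the AD colon, and it was also found in the barcodes without EPCAM of the NB abomasum at 17.0 CPM. The chemokine CCL20 was called lower in the AD gut, but all 88 of its UMIs in the NB abomasum were in 1 barcode, and the call was lost without that barcode.

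Some early response genes were higher in the NB abomasum. Of 17 compared, FOS, ATF3, NR4A1, and DDIT3 were called lower in the AD gut, with list medians of -1.26, -0.40, and 0.47 in the AD jejunum, cecum, and colon. Over all compared genes 1.64% were called lower, with medians of 0.19, 0.18, and 0.14. ATF3, a stress-induced factor, was at 919, 19.3, 14.3, 34.2, and 430.2 CPM in the library order, and FOS at 688, 271, 33.3, 152, and 234 CPM. These genes respond to handling and digestion of tissue, which differed between the libraries, and their part in the result was not tested. ATF3 was not called with mitochondrial genes left out of the totals. Stomach genes were found in the NB tuft barcodes as well. CYM, the milk-clotting enzyme of chief cells, was at 77479 CPM in 40 of 40 tuft barcodes, against 240010 CPM in the other EPCAM barcodes and 57081 CPM in the 4484 barcodes without EPCAM. The level in tuft barcodes lay between these values. Stromal markers summed to 661 CPM in the NB tuft barcodes, and to 0 to 1.19 CPM in the AD ones. In the NB abomasum they summed to 4617 CPM in the barcodes without EPCAM. The other EPCAM barcodes there, without COL1A2 by definition, had 25.7 CPM. Of the 40 NB tuft barcodes, 37 had no UMI of CD3E, CD79A, JCHAIN, or COL1A2.

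The third comparison, within the AD cow, set the jejunum against the cecum and colon. The jejunum and colon were dissociated with the same kit and the cecum with another. Of 8589 genes compared, 169 were called higher in the jejunum (1.97%) and 133 lower (1.55%), by the 2-fold rule against both, and the median log2 ratio of all genes was 0.01 against the cecum and 0.00 against the colon. In barcodes without EPCAM, 72 of the higher genes (42.6%) and 14 of the lower ones (10.5%) reached the 2-fold ratio in the same direction, against 3.18% and 0.943% of all compared genes. The duodenal tuft barcodes reached the ratio against cecum and colon for 55 of the 169 (32.5%, against 5.01% of all compared genes) and for 79 of the 133 (59.4%, against 7.24%). These ratios share the cecum and colon values by which the genes were chosen, so they are not independent of the calls. Against the colon alone 272 genes were called higher and 323 lower, and against the cecum alone 340 and 271. Without the barcodes with the highest doublet scores, 94 of the 169 higher and 79 of the 133 lower calls were kept. Without the C1QA barcodes 90 and 77 were kept. Both settings also left fewer barcodes to count, and the reason for the losses was not tested. The macrophage markers C1QA, C1QB, C1QC, CD68, and CSF1R were themselves among the genes called higher in the jejunum.

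TM4SF4, a membrane protein of the tetraspanin-like family, was called higher in the jejunum (log2 ratio 6.21 against both). It was at 2823 CPM in the AD duodenum and 1464 CPM in the AD jejunum, in 9 of 9 and 107 of 115 tuft barcodes, and at 0 in the AD cecum and colon, at least 77.1-fold lower in the colon than in the jejunum, and the NB abomasum had 3 UMIs. LGALS2, a galectin, was at 876 CPM in the AD jejunum, 11.4 in the cecum, and 0 in the colon, whereas the other EPCAM barcodes of cecum and colon held 1075 and 777 CPM of it. CCL25 divided the regions in the same way, and TBXAS1 was called higher in the jejunum too.

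Class II antigen genes were higher in the jejunal tuft barcodes too, and most UMIs of BOLA-DRA and CD74 lay in barcodes with C1QA. BOLA-DRA was at 2217 CPM in the AD jejunum, 45.6 in the AD cecum, and 0 in the AD colon, in 67 of 115, 2 of 54, and 0 of 25 barcodes. Among the 45 jejunal barcodes without C1QA it was at 677 CPM in 20 barcodes, and among the 39 with neither C1QA nor CD3E at 247 CPM. CD74, its invariant chain, was at 4340.3 CPM in all jejunal tuft barcodes and at 1559 CPM without C1QA. In jejunal barcodes without EPCAM, BOLA-DRA was at 12910.2 CPM and CD74 at 22162 CPM. Of 11 compared antigen genes, B2M, CD74, BOLA-DRA, BOLA-DMA, and BOLA-DMB were called higher in the jejunum, against 1.97% of all compared genes. BOLA-DMA was at 127 CPM in the AD jejunum, 15.2 in the cecum, and 12.7 in the colon, and BOLA-DMB at 218, 22.8, and 0 CPM. Without C1QA barcodes BOLA-DMA was at 43.3 CPM in the jejunum, 13.3 in the cecum, and 14.2 in the colon, under the 2-fold ratio against both, and BOLA-DMB, at 66.9, 26.5, and 0 CPM, was under it against the cecum. IL18 and CXCL16 were called higher as well, and IL18 had no UMI in the 45 barcodes without C1QA, while CXCL16 was at 152 CPM in all jejunal tuft barcodes and at 126 CPM without.

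The homeobox genes HOXA9 and HOXA6, known for position along the gut, were among the genes called lower in the jejunum. HOXA9 was at 346 CPM in the AD cecum and 348 CPM in the AD colon and at 0 in the other 3 libraries, at least 96.9-fold lower in the jejunum than in the cecum. HOXA6 was at 205 and 373 CPM there and had 1 UMI in the jejunum. The other EPCAM barcodes of cecum and colon held 344 and 299 CPM of HOXA9, levels near those of the tuft barcodes. GATA4, a factor of the proximal gut, had the opposite order, with 88.4, 96.7, 46.4, 0, and 0 CPM in the library order given at the start.

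The beta-defensins DEFB7, DEFB13, and EBD were called lower in the AD jejunum than in the cecum and colon. DEFB7 was at 886 CPM in 38 of 54 tuft barcodes of the AD cecum and at 247 CPM in 14 of 25 of the AD colon, and at 0 in the jejunum, at least 69.1-fold lower than in the colon. DEFB13 was at 658 and 373 CPM there and at 0 in the other 3 libraries. The values of EBD are given above, and it had UMIs in all 5 libraries. In the large intestine 1 barcode of the cecum held 247 UMIs of EBD, against a median of 18.

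Cell division genes were found in a few AD tuft barcodes. CENPF, UBE2C, and BIRC5 were called higher in the jejunum than in the cecum and colon, and CENPF, a kinetochore protein, was at 0, 58.0, 426, 53.2, and 0 CPM in the library order. At least 10 UMIs over the 20 proliferation genes were found in 12 tuft barcodes, 11 of the jejunum and 1 of the cecum, and 9 of these had no CD3E UMI. Of 17 compared early response genes, 6 were called lower in the jejunum and 0 higher: FOS, FOSB, JUN, EGR1, IER2, and DUSP1. Over all compared genes 1.55% were called lower and 1.97% higher. EGR1 was at 85.7 CPM in the AD jejunum, 479 in the AD cecum, and 1480.4 in the AD colon. FOSB and JUN moved the same way in the barcodes without EPCAM, and JUN was not called with medians of ratios.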

How the data were processed

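Droplet-based single-cell RNA sequencing with 3' version 3 chemistry had been run on 15 tissue samples of Holstein cattle. The authors aligned the reads and counted UMIs with Cell Ranger 3.1.0 against the cattle genome ARS-UCD1.2, and the deposited values are raw UMI counts of 27270 genes per barcode with no normalization. The annotation release is not given in the sources used here. Only barcodes with 500 to 4000 genes and under 50000 UMIs were kept, which left 50462 of the 63364 deposited barcodes of the 5 libraries used.

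Counts were summed over the tuft barcodes, the other EPCAM barcodes, and the barcodes without EPCAM of each library and scaled to CPM (Python 3.11.15, NumPy 2.4.6, SciPy 1.17.1, pandas 2.3.3, scikit-learn 1.9.0). Ratios are log2 of CPM plus 20, which understates the change of low genes. A gene was compared with at least 10 UMIs over the 2 sums of each library, or over the tuft barcodes of all libraries that entered, and a library entered with at least 20 tuft barcodes. AVIL and GNG13 were compared nowhere, and EPCAM, PTPRC, CD3E, and COL1A2 not against the other EPCAM barcodes, which they define. The named genes are the 15 higher and up to 5 lower than the other EPCAM barcodes with the largest smallest ratio, the 8 of each direction between AD gut and NB abomasum that did not also move in barcodes without EPCAM, and the 5 of each direction between jejunum and large intestine, with the genes of 11 fixed lists. Of 331 listed symbols, 315 were found. Some genes that met these rules are not reported here. The barcodes, lists, and rules were chosen with earlier results of these data known. Doublet scores were the share of simulated doublets among neighbors (2 simulated per barcode, 2000 variable genes, 30 components), and 0.8% of barcodes per 1000 were taken as the highest. Barcodes with high doublet scores were kept. The summing and calling steps were tested on simulated data. No replicates exist, and precision is given by counting intervals alone.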

Additional observations from a re-analysis of the deposited data

Results flagged for a closer look

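The NB colon, which entered none of the comparisons, held 4 barcodes that met the same rule, which is 0.0833% of its 4803 barcodes (95% interval 0.0227 to 0.213). It was singled out because this number exceeds the 3 barcodes that a count of 0 allows, in a library outside the main measurement. All 4 had a UMI of EPCAM, ALOX5, LTC4S, PTGS1, and RGS13, and 1 of 4 had ALOX5AP. A UMI of the T cell gene CD3E was found in 1 of the 4. No explanation was tested.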

How the results depend on the processing

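With 1 library for each tissue and stage, depth and the number of tuft barcodes limit every value, and the 9 barcodes of the AD duodenum could not enter the calls. The ratios to the other EPCAM barcodes were taken inside each library. Between libraries no pairing was possible, because each tissue and stage had 1 library. Of 148 alternative counts and shares, 110 stayed within 1.5 times the main count or within its counting interval and 38 did not. A like number does not mean that the same genes were called. Without the highest doublet scores 129 genes were called higher in the jejunum, and 94 of the main 169 were kept. Without the C1QA barcodes 90 of the 169 were kept. Of the 53 genes higher than in the other EPCAM barcodes, the mean of CPM per barcode kept 35 and a pseudocount of 50 CPM kept 28. The genes chosen by rank had the largest ratios in these same barcodes, so most were nearly bound to stay called. Of their values, 831 of 838 were still called and 0 changed direction. The 7 others were CCL20 under 3 settings, CHGA (-1.88 without the highest doublet scores and -1.51 with a pseudocount of 50 CPM), SPINK1 (-1.76 with that pseudocount), and FYB1 (1.89 with all other EPCAM barcodes). Among genes of the fixed lists, ATP2A3, JUND, PTPN6, and RAC2, higher in tuft than in other EPCAM barcodes, BMX, DSG2, and TBXAS1, higher in the AD gut, and JUN, lower in the jejunum, were not called with medians of ratios, JUND, ATF3, COL1A1, and LUM were not without mitochondrial totals, and FYB1, GNAI2, JUND, PTPN6, and RAC2 were not with all other EPCAM barcodes. These lists were not run under the other settings. A minimum of 2 UMIs gave 37 tuft barcodes in the AD colon, and a minimum of 5 gave 34 in the cecum and 16 in the colon, with 296 genes called higher and 219 lower in the jejunum against the cecum alone. A UMI of both rule genes was held by 39 barcodes of the cecum. Without the highest doublet scores 83 jejunal barcodes were left and 1 gene was called lower than in the other EPCAM barcodes. Without barcodes that held CD3E, CD79A, JCHAIN, or COL1A2, 2, 19, 26, and 6 AD barcodes were left in the duodenum, jejunum, cecum, and colon, 346 genes were called higher in the cecum than in the NB abomasum, and the jejunum could not be compared with the large intestine. With a pseudocount of 5 CPM, 105 genes were called higher and 4 lower than in the other EPCAM barcodes. With 50 CPM these were 28 and 0, 96 were higher in the AD gut, and 106 were higher and 48 lower in the jejunum. The mean of CPM per barcode gave 5 lower genes. Medians of ratios gave 33 higher and 12 lower against the other EPCAM barcodes and 116 higher and 226 lower in the AD gut. The 4 AD libraries summed gave 739 higher and 310 lower (70.4% higher). Without the NB abomasum 43 genes were lower than in the other EPCAM barcodes. Without the AD jejunum 305 and without the AD colon 286 were higher in the AD gut. The jejunum had 272 higher and 323 lower without the cecum, and 340 and 271 without the colon. Thinned to 1000 UMIs, ALOX5 was found in 63.5% of AD and 75.0% of NB tuft barcodes and PTGS1 in 23.6% and 47.5%. Leaving out CD3E barcodes, C1QA barcodes, the highest barcode of each gene, or 1 library was chosen after seeing the data. The causes of these shifts were not tested.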

Other observations

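The 8 barcodes that met the rule in the NB duodenum, jejunum, colon, and rectum came from the newborn stage and the intestine at once, and their pooled levels are given as values. ALOX5 was at 1795 CPM (95% interval 1480 to 2156), LTC4S at 3054 CPM (2640 to 3516), and ALOX5AP at 976 CPM in 5 of the 8. LTC4S in these barcodes was above the 1253 CPM of the NB abomasum, and the intervals did not overlap. The intestinal genes CDX1, CLDN3, and EBD were at 378, 771, and 9131 CPM, and the brush border genes CDHR2 and USH1C at 157 and 157 CPM. In the 4 barcodes outside the NB colon ALOX5 was at 1227 CPM, LTC4S at 4770.1, ALOX5AP at 2771, CLDN3 at 1590.0, EBD at 15037, USH1C at 273, and B2M at 5588 CPM, so that ALOX5AP was 1 UMI in the NB colon and 61 elsewhere. PIGR was at 47.2 CPM from 3 UMIs and RLBP1 at 15.7 CPM from 1 UMI. B2M was at 2692 CPM, against 2049 CPM in the NB abomasum and 7814 to 19495 CPM in the AD libraries. CERS4, TAC3, CDCA5, PEG3, HDGFL3, and SH3BGR, which were high in the NB abomasum, had no UMI in the 8 barcodes, which allows up to 47.2 CPM, and KCNF1 had 3 UMIs in 2 of them, at 47.2 CPM. These barcodes were pooled over 4 libraries, and no comparison was tested.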
